A study of Mus musculus with 1037 samples.

Results

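The genes described here are 48 genes of DNA replication and cell division, 16 of S phase and 32 of G2 and mitosis, out of 55335 genes in the table of counts. They were taken by name and found through their Ensembl identifiers, by a rule that uses no measured value but was set with earlier results of these data known, and all 48 had counts in at least some cells. RNA was measured by Smart-seq2, a full-length protocol run on 1 sorted cell per well, in epithelial cells of the back skin hair follicle of wild type mice at 3 stages of the hair cycle. Of 911 cells with counts in the 9 sorts and plates analysed, 463 detected 2000 or more genes and were kept. AnaVI, the last step of the growth phase, was sampled as LOS (lower outer root sheath, 39 of 93 cells kept), MOS (38 of 72) and UOS (83.6% kept), of which MOS and UOS are both labelled upper-middle outer root sheath. CatVI and CatVII, late steps of follicle regression, were sampled from the upper outer root sheath.

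CatVI came from plates titled P17f, where P17 was read as postnatal day 17. The titles of the AnaVI and CatVII sorts name no day, so age cannot be told apart from stage. Plates 1 and 2 carry the name PhagoHFSC_alive and kept 19 and 9 cells. Plate 5, PhagoHFSC_apop, kept 15 and plate 6, NonPhagoHFSC_apop, kept 14. Of the 67 and 57 cells on plates 3 and 4, NonPhagoHFSC_alive, 0 reached the gene minimum. CatVII was sorted as OSalive (80.1% of cells kept) and OSapop (92 cells kept, 65.2%). By the study's methods, singlets negative for Sca1 and for CD31, CD117, CD140a and CD45 were gated on CD34 and Itga6, annexin V-negative cells counted as alive, and upper and lower follicle cells were parted mechanically. Cells of several mice were pooled at each stage and no animal is named. Each sort or plate was therefore 1 sample, no test between them was possible, and stage, region, sort and library cannot be told apart. Intervals given below are exact 95% intervals of counting error only.

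In S phase a dividing cell copies its DNA. The hexamer Mcm2-7 is loaded on origins by Cdc6 and Cdt1 and becomes the replicative helicase, Pcna clamps the polymerases to DNA, and ribonucleotide reductase supplies deoxynucleotides. In mitosis Cdk1 with the B-type cyclins drives entry, condensins and topoisomerase pack the chromosomes, kinesins and centromere proteins attach them to the spindle, and the anaphase-promoting complex and the midbody proteins end the division. In the growing hair follicle the matrix cells at the base divide fast and give rise to the hair shaft and the inner root sheath, while the stem cells of the bulge divide rarely.

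The promoters of these genes are shown first, because S phase and mitosis genes are known to be switched by different elements. E2F sites serve many genes of S phase, and the cell cycle genes homology region (CHR), often beside CCAAT boxes, serves many genes of mitosis. RefSeq promoter windows, from 250 bases before to 50 after the start, were found by symbol for 41 of the 48 members, 14 of S phase and 27 of mitosis, and were not found for Mcm4, Gins2, Ccna2, Aurkb, Kif20a, Tpx2 and Smc4. On either strand, an E2F-like motif (TTTGGCGC, TTTCGCGC, TTTCCCGC or TTTGCCGC) stood in 7 of 14 S phase windows, 2 of 27 mitosis windows and 2.61% of windows of 27025 gene symbols. A CHR-like motif (TTTGAA or TTCGAA) stood in 2 of the S phase windows, in 22 of the mitosis windows (81.5%) and in 21.7% of all symbols. CCAAT was in 10 and 22 of them against 41.1% of all symbols. A CHR-like motif together with CCAAT was held by 20 of 27 mitosis windows (74.1%), 2 of 14 S phase windows (14.3%) and 8.61% of all symbols. Where a symbol had more than 1 window, a match in any was counted. A match describes letters and not a site in use.

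The 120 bases before the start of Cdk1, the mitotic kinase, Cdc20, an activator of the anaphase-promoting complex, Top2a, a topoisomerase, Mki67, the source of the Ki-67 protein, and Mcm6, a helicase subunit, show both layouts. They were picked after the search for motifs. The full window of Cdk1 also held an E2F-like motif, which is not among the 120 bases shown. All 5 genes lie on the minus strand, and the sequences are those of RefSeq (GRCm38.p6) placed on GRCm39, written 5′ to 3′. Capitals mark CHR-like and CCAAT motifs in the first 4 and E2F-like and CCAAT motifs in Mcm6, where the first E2F-like match overlaps a match on the other strand.
Cdk1 (chr10:69188743-69188862): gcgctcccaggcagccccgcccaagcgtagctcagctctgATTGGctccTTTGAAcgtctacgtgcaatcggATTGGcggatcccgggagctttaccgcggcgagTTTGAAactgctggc
Cdc20 (chr4:118294541-118294660): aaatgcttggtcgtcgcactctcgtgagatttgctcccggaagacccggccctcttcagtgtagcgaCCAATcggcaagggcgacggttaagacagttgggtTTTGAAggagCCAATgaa
Top2a (chr11:98915016-98915135): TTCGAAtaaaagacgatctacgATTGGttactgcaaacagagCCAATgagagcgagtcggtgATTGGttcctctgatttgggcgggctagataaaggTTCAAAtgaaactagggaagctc
Mki67 (chr7:135318109-135318228): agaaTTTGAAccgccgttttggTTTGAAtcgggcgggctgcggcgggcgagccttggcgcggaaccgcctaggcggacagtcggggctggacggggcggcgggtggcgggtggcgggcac
Mcm6 (chr1:128287443-128287562): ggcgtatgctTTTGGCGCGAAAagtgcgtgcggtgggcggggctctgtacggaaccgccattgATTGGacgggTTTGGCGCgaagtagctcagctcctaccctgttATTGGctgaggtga
Top2a held 5 such motifs, Cdk1 4 and Cdc20 3 in this stretch. Mki67 held 2 CHR-like matches and no CCAAT in it.

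Cells that detected 10 or more of the 48 members were most frequent in the sort labelled lower outer root sheath. In LOS they were 20 of 39 cells (51.3%, Clopper-Pearson interval 34.8 to 67.6), against 7 of 38 in MOS (18.4%, 7.74 to 34.3) and 20 cells in UOS (17.9%, 11.3 to 26.2, with 92 cells below the limit). In catagen they were 2 of 19 on CatVI plate 1 (10.5%, 1.30 to 33.1), 1 of 9 on plate 2 (11.1%, 0.281 to 48.2), 0 of 15 on plate 5, which allows a share of up to 20%, and 1 of 14 on plate 6 (7.14%, 0.181 to 33.9). OSalive held 13 (10.4% of its cells, 5.65 to 17.1) and OSapop 9 of 92 (9.78%, 4.57 to 17.8). The interval of LOS lay above those of every other group but plate 2. Of the 20 LOS cells 17 held 3 or more of 7 inner root sheath genes, 10 held 3 or more of 5 fibroblast genes and 6 held 3 or more of 6 melanocyte genes, while 9 had a count of Sox9, a factor of the outer root sheath. Without cells of 3 or more inner root sheath genes the share was 16.7% of 18 cells in LOS and 8.60% of 93 in UOS. The intervals of MOS, UOS, OSalive and OSapop and of the 3 CatVI plates with such cells overlapped. All these intervals, that of LOS among them, cover counting error only. With 1 sample a group they decide no order between groups.

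**Figure D1:**
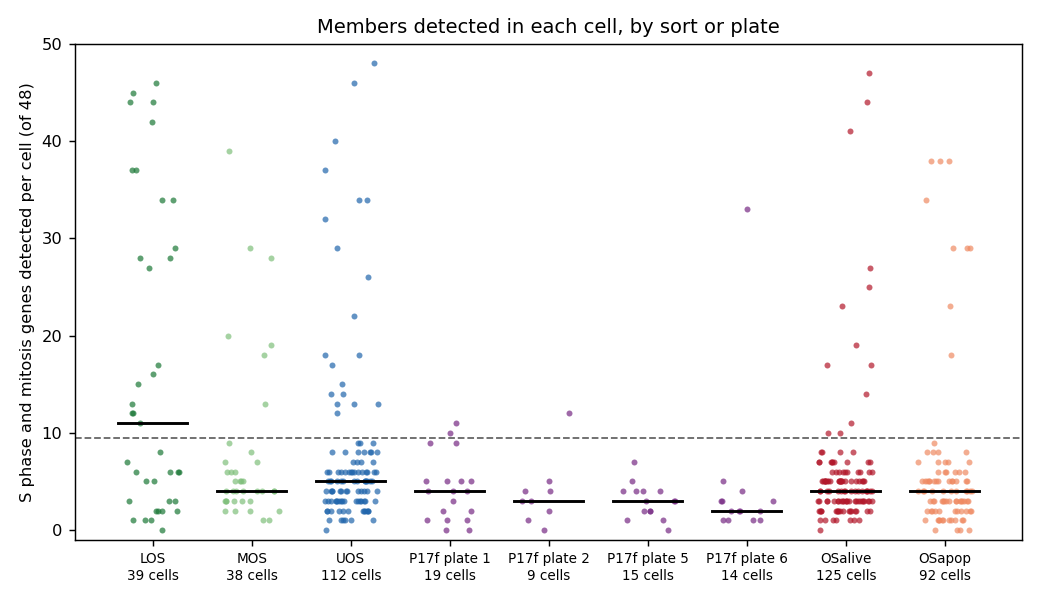
Number of the 48 members detected (1 count or more) in each passing cell, by sort or plate. Each point is 1 cell, the solid lines mark the median of each group, and the dashed line lies just under the minimum of 10 members. LOS has the highest median, 11, and reaches 46 members, while CatVI plate 5 does not exceed 7.

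Most cells detected a handful of members and a few detected nearly all. The median number was 11 in LOS (0 to 46), 4 in MOS (1 to 39), 5 in UOS (0 to 48), 4 in OSalive (0 to 47) and 4 in OSapop (0 to 38). On the CatVI plates it lay between 2 and 4, with a highest value of 33, in plate 6. Over all groups 46 cells detected 7 to 9 members, just under the minimum, and 10 cells detected 10 to 12, just above it. At 20 or more members stood 13 cells of LOS, 4 of MOS, 10 of UOS, 1 of plate 6, 6 of OSalive and 8 of OSapop. At 40 or more stood 5 of LOS, 3 of UOS and 3 of OSalive.

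Depth differed between the AnaVI and CatVII sorts, and LOS, with the largest share, had the lowest median. The median total of gene counts per cell was 108598 in LOS, 148140 in MOS, 471277 in UOS, 2182590 in OSalive and 482288 in OSapop. With every cell thinned to 50000 counts and shallower cells left out, 10 or more members were detected in 10 of 23 cells of LOS (43.5%, 16 cells left out), 4 of 32 of MOS (12.5%, 6 left out) and 12 of UOS (10.8%, 1 left out). The thinned shares were 1 of 53 in CatVI (1.89%, 4 left out), 6 in OSalive (4.84%, 1 left out) and 6 of 85 in OSapop (7.06%, 7 left out). The study left out wells of several cells by a Gapdh qPCR, and no doublet caller was run here. The UOS cells of wells E1 and E11, with 17256 and 13735 detected genes, detected 48 and 46 members and were the passing cells above 12000 genes.

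The S phase and the mitosis genes were detected together in part of these cells and apart in others. With at least 8 of the 16 S phase members and at least 16 of the 32 mitosis members as limits, chosen after the values were seen, 24 cells of all groups passed both, 35 passed the S phase limit alone and 10 the mitosis limit alone. In LOS 8 cells passed both and 8 the S phase limit alone, in UOS 8 and 9, and in MOS 1 and 5. OSalive held 3 and 8, OSapop 3 and 2, and CatVI 1 and 3. Cells past the mitosis limit alone were 2 in LOS, 2 in MOS, 0 in UOS, 2 in OSalive and 4 in OSapop.

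**Figure D2:**
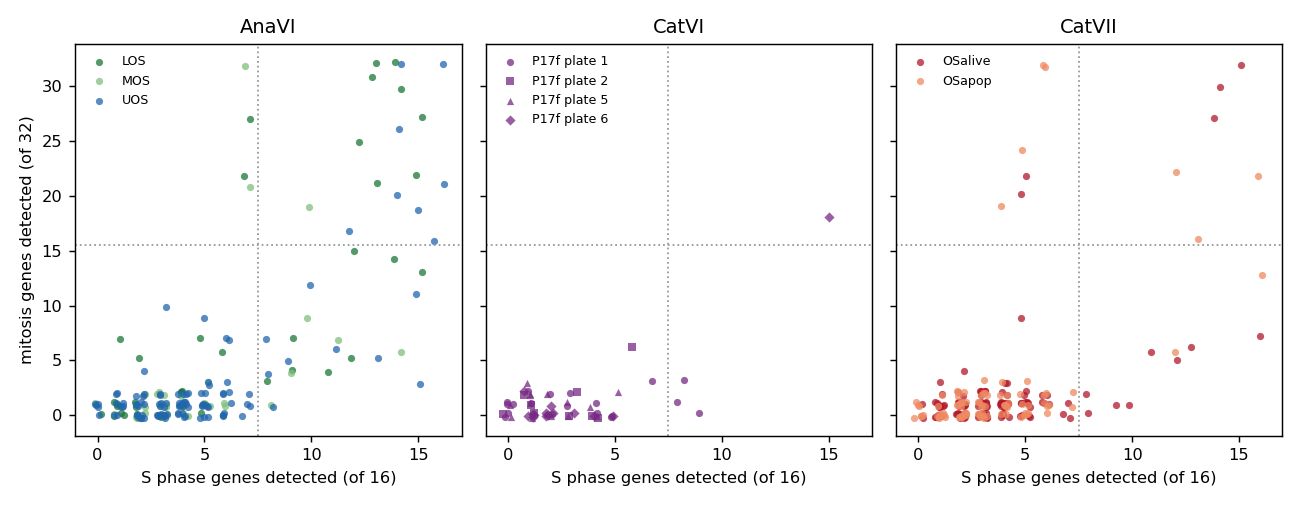
Number of S phase members (x axis, of 16) against number of mitosis members (y axis, of 32) detected in each passing cell, by group. Points were moved slightly at random so that they do not hide each other, and the dotted lines part cells at 8 and at 16 genes. Cells with S phase genes and few mitosis genes are seen in every panel, and the cells with most mitosis genes come mainly from LOS, UOS, OSalive and OSapop.

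The mitosis members were close to absent from cells below the limit of 10, and the S phase members were not. These detection rates follow in part from the limit, and are given as a description. In the 390 cells below it a mitosis member was detected in a median of 0.897% of cells, and 29 of the 32 in under 5%, while an S phase member was detected in a median of 16.03%. The 3 others were the condensin subunits Smc4 (30.8%) and Smc2 (10.5%) and the centromeric histone Cenpa (8.72%). Bub1, a checkpoint kinase, and Hmmr, a spindle protein, were detected in 0 of the 390 cells, which allows a share of up to 0.769%. Mcm6 was detected in 40.5% of these cells, Rrm1, the large subunit of ribonucleotide reductase, in 39.7% and Pcna in 39.2%. The S phase genes under 5% were Mcm5 (3.33%), Cdt1 (4.87%) and Cdc6 (0.256%). In the 73 cells at or above the limit the medians were 76.03% for S phase and 44.5% for mitosis members.

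**Figure D3:**
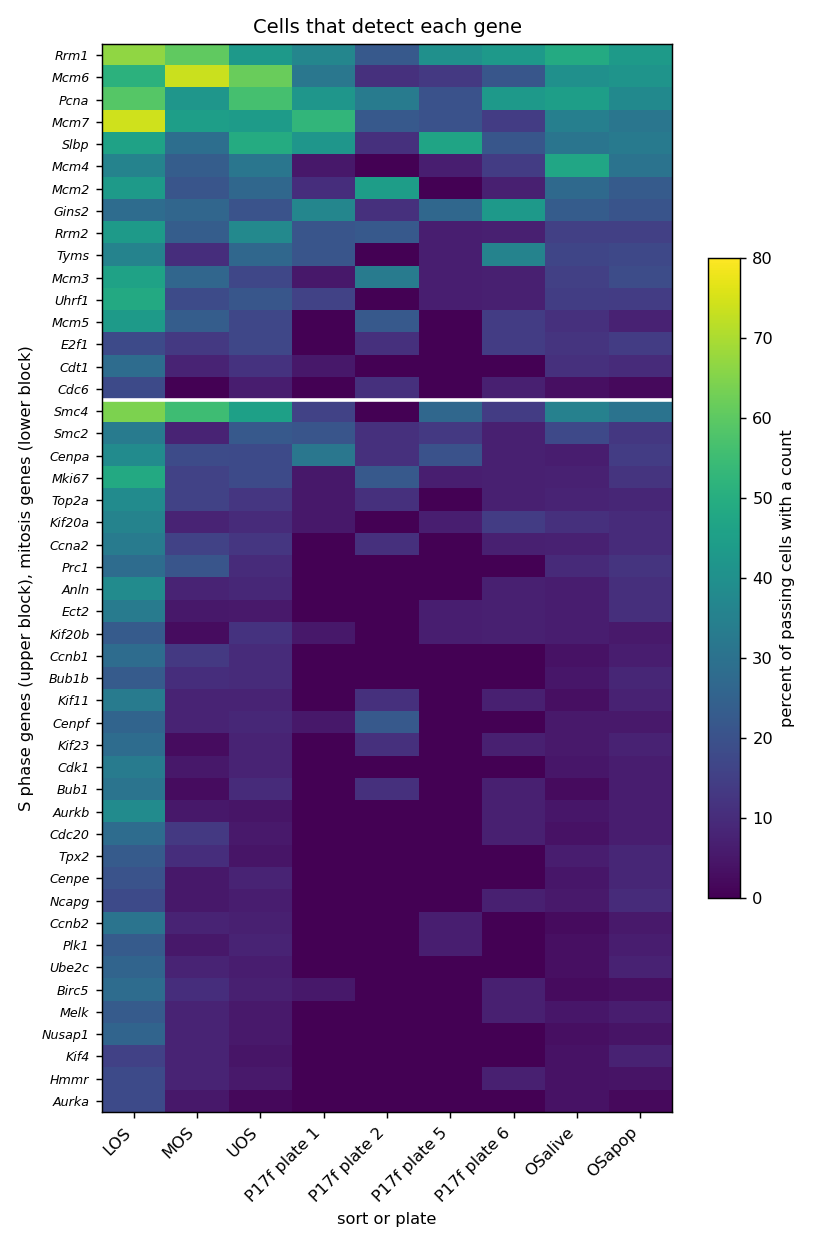
Percentage of passing cells with at least 1 count of each of the 48 members, by sort or plate, with S phase and mitosis members set apart. Rrm1, Mcm6 and Pcna are detected in 38.04% or more of cells of every AnaVI and CatVII sort, and the median mitosis member is detected in 28.2% of LOS cells, 8.04% of UOS cells and 4.80% of OSalive cells.

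Member counts lay mainly in the same cells, which follows in part from the limit of 10 members and is given as a description. The cells with 10 or more members held 66.9% of all gene counts of LOS but 99.2% of its mitosis counts and 93.8% of its S phase counts. In UOS they held 28.6% of all counts, 90.97% of mitosis counts and 74.5% of S phase counts. In MOS the shares were 9.77%, 92.96% and 39.7%, in OSalive 12.7%, 90.3% and 53.3%, and in OSapop 11.6%, 96.0% and 59.9%. S phase counts outside these cells thus made up most of those in MOS and a large part in both CatVII sorts.

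Summed over each group and expressed per 1000000 gene counts of the group (CPM), the 32 mitosis members reached 715 CPM in LOS, 137.99 in MOS, 94.8 in UOS, 16.2, 15.46, 23.8 and 131.5 on CatVI plates 1, 2, 5 and 6, 118.1 in OSalive and 218.3 in OSapop. The 16 S phase members reached 325 CPM in LOS, 121.7 in MOS, 204.5 in UOS, 129.6, 61.4, 26.3 and 154.9 on the plates, 92.2 in OSalive and 137.9 in OSapop. LOS was highest for both, and by a wider margin for mitosis. The CatVI plates were low for mitosis save plate 6, where 1 cell of well E12 held 83.5% of the member counts. The cell with the most member counts, S phase and mitosis together, held 32.5% of them in LOS, 39.9% in MOS and 29.7% in UOS. In OSalive it held 37.3% and in OSapop 36.4%, so that a few cells set these sums. Mitosis counts alone were more concentrated in MOS, OSalive, OSapop and LOS. The cell of well G9 held 849 of 1179 in MOS, B3 held 19073 of 33948 in OSalive and F9 held 9198 of 15949 in OSapop. In LOS A11 held 3251 of 7664, and in UOS G5 held 1585 of 6477. Most mitosis counts of MOS, OSalive and OSapop thus came from 1 cell each. In summed counts, more cells in cycle and more RNA per cell cannot be told apart.

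Among the helicase genes, Mcm6 was detected most widely and differed little between the AnaVI sorts. It reached 30.7 CPM in LOS (20 of 39 cells), 23.3 in MOS (28 of 38) and 25.7 in UOS (61.6% of cells), 21.9, 5.74, 1.11 and 5.43 on CatVI plates 1, 2, 5 and 6, 13.1 in OSalive (50 cells, 40%) and 17.7 in OSapop (38 of 92). The log2 ratio of its sum in CatVI against UOS was -1.29 (interval -1.54 to -1.05). Mcm2 differed more between the AnaVI sorts, at 29.4 CPM in LOS, 10.4 in MOS and 11.4 in UOS, then 0.729, 6.62, 0 and 2.72 on the plates, 9.67 in OSalive and 11.6 in OSapop. Mcm4 went the other way, at 13.9 in LOS and 16.2 in UOS, with 6.09 in MOS, 8.48 in OSalive, 8.47 in OSapop and 0 to 18.96 on the plates, the last from 1 cell. Mcm7 stood at 39.01 CPM in LOS (29 of 39 cells), 9.83 in MOS, 30.6 in UOS, 28.6, 9.71, 2.002 and 17.9 on the plates, 8.58 in OSalive and 9.23 in OSapop. LOS and UOS were thus the highest for Mcm4, Mcm6 and Mcm7 save for plate 1 of Mcm4. Gins2, a subunit of the GINS complex that joins the helicase, lay between 0.883 and 8.70 CPM in all groups, with both extremes on CatVI plates.

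The loading factors were detected in few cells. Cdc6 had counts in 7 of 39 cells of LOS, 7 cells of UOS (6.25%), 4 of OSalive (3.20%), 2 of 92 of OSapop, 2 of 57 of CatVI and 0 of 38 of MOS. Cdt1 had counts in 11, 13, 14, 9, 1 and 3 cells of the same groups. The CPM of Cdc6 in OSapop, 2.09, came to 95% from 1 cell, which is why its ratios below are large.

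Of the genes that supply nucleotides, Rrm1 was found in every group. It reached 38.9 CPM in LOS (26 of 39 cells), 20.6 in MOS (23 of 38), 17.95 in UOS (48 cells, 42.9%), 15.3, 8.39, 11.8 and 32.1 on CatVI plates 1, 2, 5 and 6, 22.2 in OSalive (61 cells, 48.8%) and 20.01 in OSapop (40 of 92). Outside LOS it stayed near 20 CPM in the sorts of AnaVI and CatVII. Rrm2, the small subunit, whose protein is made in S phase, had 25.01 CPM in LOS, 12.1 in UOS, 7.84 in MOS, 1.94 in OSalive and 2.98 in OSapop. The pair therefore parted in catagen, with Rrm1 in OSalive 0.31 log2 above UOS and Rrm2 at a log2 ratio of -2.64.

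Pcna stood at 24.7 CPM in LOS (23 of 39 cells), 8.54 in MOS, 13.7 in UOS (63 cells, 56.2%), 2.002 to 11.96 on the CatVI plates, 4.66 in OSalive (56 cells, 44.8%) and 8.49 in OSapop (35 of 92). Slbp, which binds the stem loop of histone messengers, stood at 10.7 in LOS, 7.96 in MOS, 10.6 in UOS, 2.72 to 12.9 on the plates, 3.17 in OSalive and 8.34 in OSapop. Both were lower in OSalive than in UOS, at log2 ratios of -1.56 (Pcna, -1.68 to -1.44) and -1.74 (Slbp, -1.88 to -1.598). Uhrf1, which keeps DNA methylation through replication, reached 37.5 CPM in LOS, 23.6 in UOS and 21.2 in OSapop, the last to 75% from 1 cell, against 5.07 in OSalive and 6.32 in MOS. E2f1, a factor that switches on S phase genes, was low everywhere, between 0 and 8.15 CPM.

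Mki67, whose protein Ki-67 is the usual stain for cycling cells, was highest in LOS. It reached 115.9 CPM in LOS (109.5 to 122.5, 19 of 39 cells), 20.8 in MOS (17.9 to 24.1, 6 of 38) and 21.3 in UOS (20.2 to 22.4, 20 cells). On CatVI plates 1, 2 and 5 it had 6, 9 and 2 counts, or 1.09, 3.97 and 0.445 CPM, and on plate 6 it had 59.2 CPM in 1 cell. OSalive had 23.6 CPM (23 to 24.1) in 9 cells (7.20%), 64% of it in 1 cell, and OSapop 39.7 (38.3 to 41.2) in 11 of 92. In the cells with a count the median was 132.2 CPM in LOS, 42.4 in UOS, 71.5 in OSalive and 230.8 in OSapop. A smaller share of cells thus carried Mki67 in OSapop than in LOS, at a median level that was not lower.

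Top2a, which untangles copied chromosomes, was likewise highest in LOS, with 66.5 CPM in LOS (15 of 39 cells), 9.01 in MOS, 15.8 in UOS, 0 to 8.70 on the plates, 15.95 in OSalive and 21.9 in OSapop. Smc2, a condensin subunit, stood at 20.9 in LOS, 2.93 in MOS, 2.93 in UOS, 0.442 to 2.67 on the plates, 4.63 in OSalive and 6.00 in OSapop. Its partner Smc4 stood at 30.2 in LOS (25 of 39 cells), 10.3 in MOS (21 of 38), 9.01 in UOS (51 cells, 45.5%), 0 to 11.1 on the plates, 5.96 in OSalive and 9.61 in OSapop. Of the mitosis members Smc4 was found in the most cells of every AnaVI and CatVII sort. Ncapg, a further condensin subunit, was found in 7 of 39 cells of LOS, 7 of UOS (6.25%) and 1 of 57 of CatVI.

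The cyclins and their kinase had few or no counts in CatVI. Ccna2, the A-type cyclin, reached 31.8 CPM in LOS (13 of 39 cells), 6.44 in MOS, 6.00 in UOS, 0 to 0.543 on the plates, 5.35 in OSalive and 13.1 in OSapop. Ccnb1, a B-type cyclin, reached 22.1 CPM in LOS (11 of 39 cells), 11.2 in MOS, 1.98 in UOS, 2.15 in OSalive and 4.74 in OSapop and had 0 counts on every CatVI plate. Cdk1 reached 19.3 CPM in LOS (13 of 39 cells), 2.22 in MOS (2 cells), 1.89 in UOS, 2.20 in OSalive and 1.71 in OSapop, again with 0 counts in CatVI. In CatVI as a whole 10 of the 32 mitosis members had 0 counts, and none of the 16 S phase members did.

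Genes of the centromere and the spindle showed LOS highest as well. Cenpa, the centromeric histone H3 variant, stood at 23.3 CPM in LOS (15 of 39 cells), 4.21 in MOS, 3.86 in UOS, 1.09 to 3.46 on the plates, 1.09 in OSalive and 5.56 in OSapop. Kif20a, a kinesin of the central spindle, stood at 13.7 in LOS (14 of 39 cells), 2.69 in MOS, 0.571 in UOS, 0 to 1.09 on the plates, 2.53 in OSalive and 7.76 in OSapop. Prc1, which bundles the microtubules of the central spindle, stood at 23.6 in LOS, 8.31 in MOS, 4.24 in UOS, 7.48 in OSalive and 14.9 in OSapop with 0 counts in CatVI. These 3 genes were detected in fewer than 1 in 4 cells of MOS, UOS, OSalive and OSapop.

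Genes that act when the cell is cut at the end of division differed from each other in CatVII. Anln, an actin-binding protein of the cleavage furrow, reached 28.9 CPM in LOS (15 of 39 cells), 9.95 in MOS, of which 96.5% lay in 1 cell, 1.36 in UOS, 9.64 in OSalive and 25.7 in OSapop, with counts on the plates in 1 cell of plate 6. Ect2, which acts at the same furrow, reached 14.8 CPM in LOS (13 of 39 cells), 2.81 in MOS, 2.41 in UOS, 0 to 1.78 on the plates, 2.49 in OSalive and 2.14 in OSapop. Anln in OSapop was close to its level in LOS, and Ect2 was not. The other mitosis members, which include the kinases Aurka, Aurkb, Plk1, Bub1b and Melk, the motors Kif4, Kif11, Kif20b and Kif23, the centromere proteins Cenpe and Cenpf, the ubiquitin-conjugating enzyme Ube2c, Birc5, Ccnb2, Tpx2 and Nusap1, were detected in 18 (Aurka) to 39 (Kif20b) of the 463 cells.

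Some of these values are uncertain because the protocol does not keep strand. The exons of 21 members overlap those of another gene, and for 9 of them over more than 25% of the canonical transcript: Gins2 (Gse1), Kif20a (Brd8, Cdc23), Ube2c (Tnnc2), Rrm2 (Gm59512), Ncapg (Lcorl), Prc1 (Rccd1), Pcna (AV099323), Aurka (Fam210b, Gm75386, Cstf1) and Slbp (Gm10459). Named pseudogenes exist for 5 members, Pcna, Tyms, Ccnb1, Ccnb2 and Kif4.

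The question for LOS against UOS was where in the growing follicle the cycle genes were expressed. All 30 mitosis members with 100 or more counts over both groups were 2-fold or more higher in LOS and 0 were lower, with a median log2 ratio of 3.35. Of the 16 S phase members 6 were 2-fold higher and 0 lower, with a median of 0.69. Over all 11473 genes tested 14.1% were 2-fold higher and 14.3% lower, with a median of 0.04. The largest ratios were those of Tpx2, which activates a spindle kinase (5.27, interval 4.70 to 5.87), Hmmr (5.13, 4.54 to 5.77) and the kinetochore motor Cenpe (4.84, 4.38 to 5.34). The smallest among mitosis members were those of Smc4 (1.75, 1.55 to 1.94), Kif20b (1.78, 1.34 to 2.20) and Top2a (2.08, 1.94 to 2.22). Among S phase members Cdt1 (1.45, 0.95 to 1.92), Mcm2 (1.37, 1.18 to 1.56) and Tyms, which makes thymidylate (1.29, 1.01 to 1.56), lay highest and E2f1 (-0.84, -1.56 to -0.20), Mcm4 (-0.22, -0.48 to 0.02) and Cdc6 (-0.15, -0.75 to 0.41) lowest. Aurka and Nusap1 had too few counts. With no filter on counts 38 members in all were 2-fold higher and 0 lower. The cells of LOS with 10 or more members, which held 66.9% of all gene counts of the sort, held 92.3% of its inner root sheath, 99.01% of its melanocyte and 21.4% of its fibroblast marker counts. When cells of 3 or more inner root sheath genes were left out, 16 members had enough counts, of which 14 were higher and 1, Ect2 (-1.45), lower, against 15.7% and 22.3% of all genes. With median-of-ratios and TMM scaling 33 and 32 of the 46 members, in place of 36, were 2-fold higher.

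MOS against UOS compared both sorts labelled upper-middle sheath. Here 0 of 16 S phase members were 2-fold higher and 7 lower, with a median of -0.73, and of 21 mitosis members with enough counts 5 were higher and 2 lower, with a median of 0.22. Of all genes 6.56% were 2-fold higher and 23.2% lower, with a median of -0.31. Cdc6 had 0 counts in MOS and was at least 8.83-fold lower, set against 3 counts over the group. Tyms (-2.47, -3.61 to -1.53) and Uhrf1 (-1.90, -2.32 to -1.51) followed, while Gins2 (0.43, -0.08 to 0.90), Rrm1 (0.20, -0.04 to 0.43) and Mcm2 (-0.13, -0.46 to 0.19) had intervals across 0. The highest mitosis members were Anln (2.87, 2.43 to 3.31), Ccnb1 (2.51, 2.12 to 2.90) and Cenpf (2.11, 1.68 to 2.53), and the lowest Aurkb (-1.71, -3.62 to -0.32), Bub1 (-1.05, -2.40 to 0.04) and Ncapg (-0.89, -2.24 to 0.20). Without the cell of highest member counts in each group, well G9 in MOS, 0 members were 2-fold higher, and as a mean over cells 17 were. Without cells of 3 or more inner root sheath genes 6 were higher and 2 lower of 18, against 8.39% and 19.4% of all genes.

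CatVI against UOS set regressing against growing upper follicle. Of 16 S phase members 0 were 2-fold higher and 10 lower, with a median of -1.30, and of 18 mitosis members with enough counts 0 were higher and 11 lower, with a median of -1.34. Of all genes 12.9% were higher and 24.9% lower, with a median of -0.18. Ccna2 had 2 counts in CatVI (log2 ratio -5.40, -8.45 to -3.54), Prc1 had 0 and was at least 19.9-fold lower, and Bub1b had 0 and was at least 12.3-fold lower. Kif20b (0.19, -0.41 to 0.76), Anln (0.06, -0.71 to 0.77) and Cenpa (-0.37, -0.88 to 0.10) did not part from UOS beyond counting error. Among S phase members Cdc6 (-3.86, -6.15 to -2.30, 3 counts), Cdt1 (-3.68, -6.74 to -1.79) and Uhrf1 (-3.57, -4.17 to -3.04) lay lowest, and Gins2 (0.23, -0.19 to 0.64), Tyms (0.01, -0.35 to 0.35) and Rrm1 (-0.23, -0.45 to -0.02) highest. Without plate 6, 23 of 33 members were lower and the mitosis median was -2.65. Without cells of 3 or more inner root sheath genes 4 were lower and 2 higher of 16, with a mitosis median of 0.094, against 22.1% and 16.5% of all genes.

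With all passing cells summed, OSalive against UOS gave medians of opposite sign for the S phase and mitosis lists. In OSalive the cell of well B3 held 19073 mitosis counts, and the next highest cell 5997. Of 16 S phase members 0 were 2-fold higher and 10 lower, with a median of -1.29. Of 32 mitosis members 11 were higher and 4 lower, with a median of 0.59, where all genes had 11.5% higher, 26.6% lower and a median of -0.32. Together 11 members were higher and 14 lower, and with median-of-ratios or TMM scaling 16 were higher and 10 lower. Anln (2.82, 2.53 to 3.14), Tpx2 (2.64, 2.12 to 3.22) and Kif20a (2.15, 1.68 to 2.65) lay highest, and Ccnb2 (-3.39, -3.98 to -2.82), Cenpa (-1.83, -2.07 to -1.58) and Birc5, of the chromosomal passenger complex (-1.31, -1.77 to -0.84), lowest. Cdc6 (-5.41, -6.13 to -4.76), Rrm2 (-2.64, -2.80 to -2.48) and Uhrf1 (-2.22, -2.33 to -2.12) were the lowest of S phase, and Rrm1 (0.31, 0.22 to 0.40), Mcm2 (-0.23, -0.35 to -0.12) and Cdt1 (-0.55, -0.85 to -0.24) the highest. Without the cell of highest member counts in each group, well B3 in OSalive, 6 members were higher. Without cells of 3 or more inner root sheath genes, all of them in UOS, 30 were higher and 2 lower of 46, with an S phase median of 0.21, against 15.6% and 22.6% of all genes. This removed 12 of the 20 UOS cells with 10 or more members and 0 of the 13 of OSalive. The shift towards OSalive therefore follows in part from the exclusion.

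OSapop against OSalive compared the CatVII sorts. Most mitosis counts of each sort came from 1 cell, 9198 counts in well F9 of OSapop and 19073 in B3 of OSalive. The Cdc6 and Uhrf1 counts of OSapop each came mostly from 1 cell as well. Of 16 S phase members 5 were 2-fold higher and 1 lower, with a median of 0.66, and of 32 mitosis members 14 were higher and 1 lower, with a median of 0.88. Of all genes 10.6% were higher and 11.3% lower, with a median of 0.12. Cdc6 (4.84, 4.18 to 5.57), Uhrf1 (2.07, 1.96 to 2.17) and Mcm3 (1.61, 1.48 to 1.74) were the highest of S phase, and Cdt1 (-1.01, -1.49 to -0.56), Tyms (-0.29, -0.53 to -0.06) and Rrm1 (-0.15, -0.23 to -0.07) the lowest. Among mitosis members Ccnb2 (3.73, 3.19 to 4.30), Cenpa (2.35, 2.13 to 2.57) and Hmmr (2.16, 1.91 to 2.41) were the highest, and Melk (-2.14, -2.74 to -1.59), Cdk1 (-0.36, -0.65 to -0.09) and Aurkb (-0.32, -0.61 to -0.04) the lowest. The share of cells with 10 or more members was 9.78% in OSapop and 10.4% in OSalive. With thinned cells it was 7.06% (2.63 to 14.7) against 4.84% (1.80 to 10.2), and at 20 or more members 8.70% against 4.80%, so the order of the shares changed with the limit and the depth. The first 4 comparisons share the UOS cells and are not independent.

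**Figure D4:**
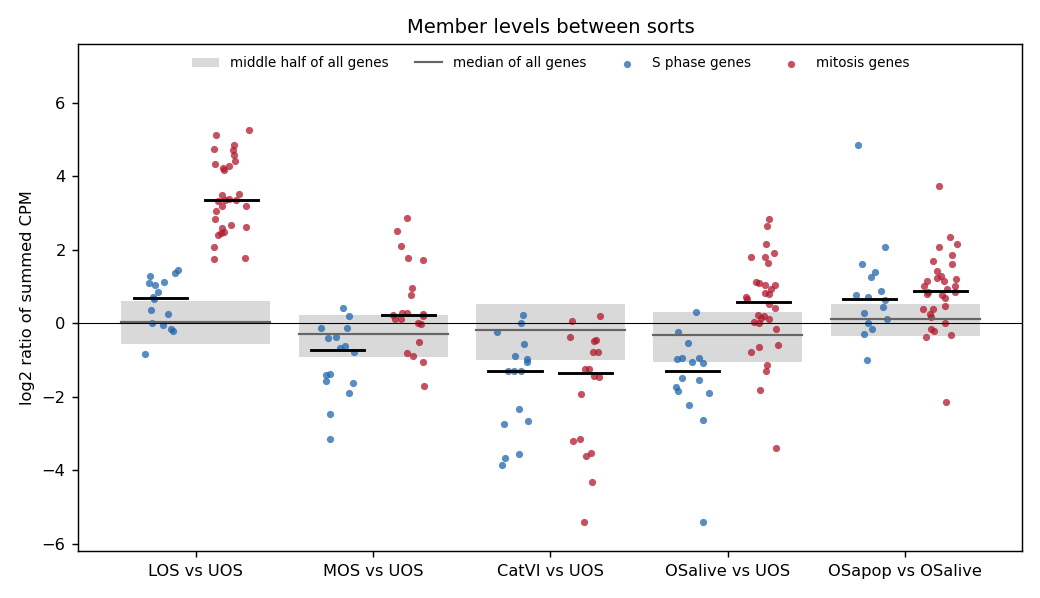
Log2 ratio of CPM for each member with 100 or more counts over both groups, in the 5 comparisons, S phase and mitosis members apart. Points are genes, black lines the list medians, the grey line and band the median and middle part of all genes tested. In LOS against UOS the 30 mitosis points lie at 1.75 or above, and in OSalive against UOS the medians of the lists lie on opposite sides of 0. All passing cells are summed, so a few cells with many member counts weigh heavily.

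Other genes of the pathway were taken from lists of genes by name, which were chosen with earlier results of these data known. Of 44 further G2 and mitosis genes with enough counts 39 were 2-fold higher in LOS than in UOS and 0 lower (median 2.54), against 14.1% and 14.3% of all genes, and of 40 further replication genes 16 were higher and 2 lower (median 0.76). In MOS 0 of 37 replication genes were higher and 19 lower, in CatVI 0 of 36 and 26, and in OSalive 0 of 40 and 18. Of all genes 6.56%, 12.9% and 11.5% were higher in these groups and 23.2%, 24.9% and 26.6% lower. Further mitosis genes were 7 higher and 4 lower of 32 in MOS, 0 and 18 of 32 in CatVI, and 19 and 6 of 51 in OSalive. In OSapop against OSalive the counts were 8 higher and 3 lower of 39 replication genes and 13 and 4 of 53 mitosis genes, against 10.6% and 11.3% of all genes. After cells of 3 or more inner root sheath genes were left out, the further mitosis genes were 7 higher and 0 lower of 14 in LOS, 3 and 0 of 15 in MOS, 1 and 5 of 14 in CatVI and 36 and 4 of 51 in OSalive. The further replication genes were then 12 and 2 of 18 in LOS, 3 and 4 of 16 in MOS, 2 and 8 of 17 in CatVI and 14 and 7 of 38 in OSalive, with a median of 0.45 in OSalive. Of all genes 15.7% were then higher and 22.3% lower in LOS, and 8.39% and 19.4% in MOS. The shares were 16.5% and 22.1% in CatVI and 15.6% and 22.6% in OSalive. OSalive held no cell of 3 or more inner root sheath genes, so its values changed through UOS alone.

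The replication genes found in most cells were Rpa1, which covers single-stranded DNA, the clamp loader subunits Rfc2 and Rfc5, Gins4 and the polymerase subunit Pola1. Their log2 ratios in LOS against UOS were 0.64, 0.34, 1.23, -0.09 and 1.24, and in CatVI against UOS -0.83, -1.43, -0.03, -0.38 and -0.22. Among further mitosis genes, the tubulin Tubb4b, the microtubule protein Ckap5, the phosphatase Cdc25b, the checkpoint protein Bub3 and the histone chaperone Hjurp were found in most cells, at LOS ratios of 0.46, 1.06, -0.56, 0.83 and 1.197. Cdc25b, which activates cyclin-dependent kinases, was low in AnaVI (7.65, 12.4 and 11.3 CPM in LOS, MOS and UOS) and higher in CatVII (41.5 in OSalive, 66.8 in OSapop), with counts in 76.8% and 75% of cells. It was thus found in most CatVII cells, far beyond the cells with 10 or more members.

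Genes of G1 and the brakes of the cycle differed less between LOS and UOS. Of the 7 G1 cyclins and kinases 0 were 2-fold higher or lower, and of 14 brakes 2 were higher and 1 lower, against 14.1% and 14.3% of all genes. The G1 genes summed to 339 CPM in LOS, 229.5 in MOS, 262.1 in UOS, 181.7 in OSalive and 244.1 in OSapop. Of them Cdk4 (log2 ratio 0.80, 0.67 to 0.92) and Ccnd2 (0.77, 0.69 to 0.84) were the most above UOS in LOS. Ccnd3, a D-type cyclin, stood at 57.1 CPM in LOS, 41.9 in MOS, 60.5 in UOS, 53.2 in OSalive and 56.7 in OSapop. Cdk4, its kinase, stood at 65.97, 36.8, 37.97, 21.5 and 30.8 in the same groups, and Ccnd2 at 159.5, 71.6, 93.7, 29.7 and 81.02. Cdk6 and Myc had LOS ratios of -0.38 and -0.58. Cdkn1b, the inhibitor p27, was detected in 92.9% of cells of UOS and 92.8% of OSalive at 37.9 and 38.1 CPM. Rbl2, a pocket protein of resting cells, had 4.20 CPM in LOS, 3.98 in MOS, 12.3 in UOS, 19.2 in OSalive and 19.3 in OSapop, a LOS ratio of -1.55 (-2.02 to -1.12). Rb1, Rbbp4 and E2f4 had LOS ratios of -0.58, 0.68 and 1.25. In OSapop against OSalive 1 G1 gene was higher and 0 lower, and 0 of 15 brakes were higher and 3 lower. Of all genes 10.6% were higher and 11.3% lower in this comparison.

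The cells with 10 or more members differed by stage in which markers they carried. The numbers of markers taken as limits were chosen after the values were seen. Markers were counted from 1 count in cells that were not thinned. Depth was thus not matched between cells with and without 10 or more members. At least 3 of 7 inner root sheath genes (Gata3, Tchh, Krt25, Krt27, Krt28, Krt71, Krt73) were detected in 17 of 20 such cells of LOS (85%, 62.1 to 96.8) against 4 of 19 other cells, in 12 of 20 of UOS (60%, 36.1 to 80.9) against 7 of 92, and in 3 of 7 of MOS against 1 of 31. In CatVI the numbers were 2 of 4 and 0 of 53, in OSalive 0 of 13 and 0 of the others, and in OSapop 0 of 9 and 0 of 83. Krt27 and Krt28 had 0 counts in OSalive, and Krt25 and Krt28 in OSapop. At least 3 of 6 hair matrix genes (Lef1, Msx1, Msx2, Hoxc13, Shh, Dlx3) were found in 13 of 20 such cells of LOS against 2 of 19 others and 13 of 20 of UOS against 3 of 92. In MOS the numbers were 3 of 7 against 2 of 31 and in CatVI 2 of 4 against 15 of 53. In OSalive they were 3 of 13 (23.1%, 5.04 to 53.8) against 44 others (39.3%, 30.2 to 48.96) and in OSapop 0 of 9 (up to 33.6%) against 27 of 83 (32.5%, 22.6 to 43.7), with intervals that overlap.

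In the AnaVI and CatVII sorts, markers of the outer root sheath were found in most cells with and without 10 or more members. At least 5 of 6 outer root sheath genes (Krt5, Krt14, Krt17, Sox9, Itga6, Itgb4) were found in 13 of 20 cells of LOS with 10 or more members and 16 of 19 others, in 18 of 20 and 91 of 92 of UOS, in 12 of 13 and 96.4% of the others of OSalive, and in 8 of 9 and 73 of 83 of OSapop. In CatVI the numbers were 2 of 4 and 34 of 53, and on its plate 2 they were 0 of 1 and 2 of 8. The median summed level of these genes per cell was 999 CPM in LOS cells with 10 or more members against 3048 in the others, and 2293 against 2947 in OSalive. Sox9, a factor of the outer root sheath, had counts in 9 of 20 and 16 of 19 cells of LOS and in 12 of 13 and all other cells of OSalive. In LOS the member-rich cells thus carried less of the sheath's own markers than the other cells of the sort.

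**Figure D5:**
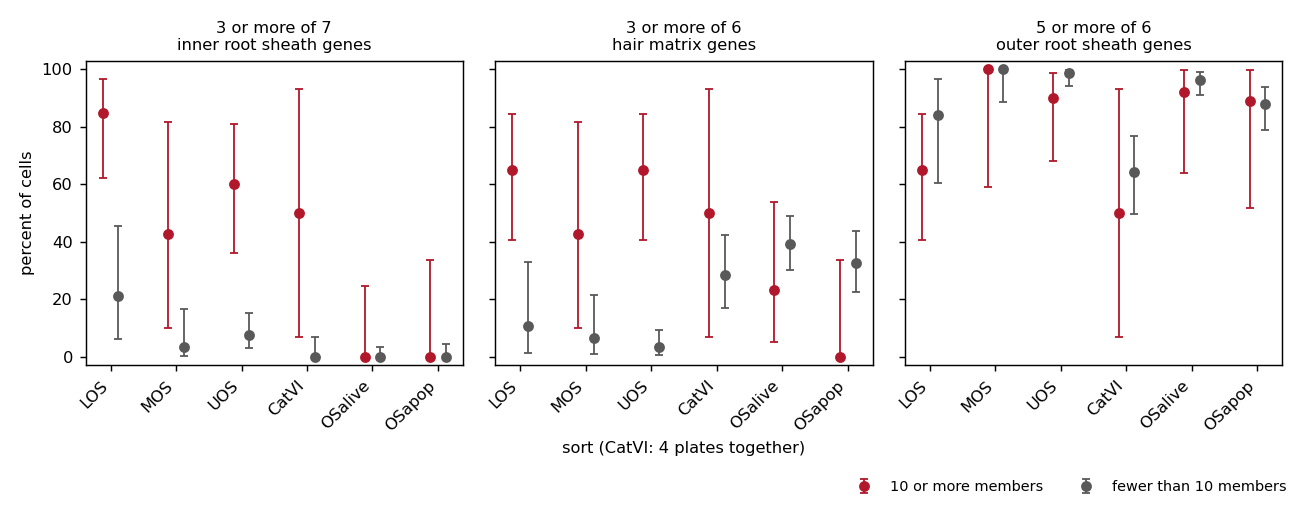
Percentage of cells with at least 3 of 7 inner root sheath genes, at least 3 of 6 hair matrix genes and at least 5 of 6 outer root sheath genes, in cells with 10 or more members and in the other cells of each group. Bars are exact 95% intervals. In LOS and UOS the cells with 10 or more members show the larger inner root sheath share, and in OSalive and OSapop that share is 0 in both. Cells were not thinned, so depth is not matched.

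Genes of other cell types were found as well, partly in the same cells. In LOS the fibroblast genes summed to 1173 CPM, near the 1397 CPM of the outer root sheath genes, and 31 of 39 cells held at least 1 of them, mostly Col3a1 and Col1a1. At least 3 of 5 fibroblast genes were found in 10 of 20 LOS cells with 10 or more members and 3 of 19 others, and in 8 of 20 and 0 of 92 of UOS. At least 3 of 6 melanocyte genes were found in 6 of 20 and 0 of 19 of LOS and 5 of 20 and 1 of 92 of UOS, and at least 3 of 6 immune genes in 4 of 20 and 1 of 19 of LOS. The gate named antibodies against CD140a, CD117 and CD45, the products of Pdgfra, Kit and Ptprc. Summed levels in LOS were 160.4 CPM for melanocyte, 63.3 for endothelial and 25.2 for immune genes, and in UOS 279.6 CPM for fibroblast, 19.5 for melanocyte, 7.54 for endothelial and 1.57 for immune genes, with Cd3e and Cd207 at 0 in LOS. In OSalive and OSapop the fibroblast genes summed to 160.8 and 159.7 CPM, the endothelial genes to 0.647 and 0.630 and the immune genes to 3.27 and 5.78. The melanocyte sums there, 42.9 and 43.7 CPM, were nearly all Mitf (42.1 and 42.4 CPM), with Mlana and Kit at 0 in both sorts and Tyrp1 at 0 in OSalive and at 1 count in OSapop. The 10 genes of other organs summed to between 0 and 1.63 CPM in every group. The part of cells with fibroblast, melanocyte or immune genes in the results above was not tested, and depth was not matched in these shares. Leaving out every cell with 3 or more inner root sheath genes, 10 or more members were detected in 16.7% of the remaining 18 cells of LOS, 8.60% of 93 of UOS, 10.4% of OSalive and 9.78% of 92 of OSapop.

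The genes that ran most closely with the number of members in AnaVI were sought over the AnaVI cells of at least 50000 counts (23 of LOS, 32 of MOS and all but 1 of UOS), which share sorts and libraries. The number of members was counted after thinning to 50000 counts. The level of each gene was its CPM before thinning, so the ranking is not fully matched for depth. Of 8020 genes ranked, those outside the lists with the highest Spearman correlation were Atad2 (0.571), Cux1 (0.503), Mycl (0.487), Nrp2 (0.479), Nhs (0.475), G6pdx (0.458), Mt2 (0.456), Hmgn2 (0.456), Fzd10 (0.451) and Ran (0.447). Atad2, a chromatin-bound ATPase, was detected in 19 of 20 LOS cells with 10 or more members and 2 of 19 others, and in 13 of 20 and 11 of 92 of UOS. Cux1, a homeodomain factor, was detected in 19 of 20 and 9 of 19 of LOS and 15 of 20 and 14 of 92 of UOS. Ran, the GTPase of nuclear transport, was found in all 20 such cells of both sorts and also in 12 of 19 and 68 of 92 of the others. Atad2 stood at 23.9 CPM in LOS, 3.04 in MOS and 13.6 in UOS, and Cux1 at 339.9, 13.1 and 78.97. The inner root sheath keratin Krt25 (0.519) and the fibroblast gene Dcn (0.542) ranked among the same genes.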

How the data were processed

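The authors aligned trimmed reads to mm39 with STAR 2.6, quantified them with Salmon 1.4.0 and deposited estimated counts per gene, without normalization, for 1036 cells, 55335 genes and 92 ERCC spike-ins. Counts were rounded to whole numbers and spike-ins were kept apart. Cells with 2000 or more detected genes were kept, the minimum the study used. Each group was summed and divided by its total of gene counts to give CPM. A gene was called where it differed 2-fold or more, with 100 or more counts over both groups, and a group at 0 was set to 3 counts. No edgeR or other test was applied, since each group is 1 sample. Intervals are exact binomial (shares, ratios) or Poisson (CPM), at 95%, for counting error only, since copies of a molecule made by PCR are counted as separate reads. Depth per cell ranged from 14169 to 5896660 gene counts, which limits detection in shallow cells. Symbols and overlaps came from GENCODE vM39 (GRCm39), which holds 93.3% of the gene identifiers, and sequences from RefSeq. Genes found in the annotation hold 19.3% to 28.7% of each group's counts, so CPM over annotated counts was tried as an alternative.

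The members and gene lists were chosen with earlier results of these data known. All members are named, per-group values are given for the 8 S phase and 10 mitosis members detected in the most cells, and each comparison names the 3 highest and 3 lowest of each list. From each pathway list the 5 genes found in the most cells are named, and outside the lists the 10 genes that correlate best with the number of members. Scripts were tested on simulated data. Python 3.11.15 (numpy 2.4.6, pandas 2.3.3, scipy 1.17.1) and R 4.3.3 with edgeR 4.0.16 for TMM factors were used. Alternatives varied the cell minimum, detection, thinning, scaling, filter and cells left out.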

Additional observations from a re-analysis of the deposited data

Results flagged for a closer look

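Cells outside the comparisons also carried the cycle genes. Of 572 cells with counts under the minimum of 2000 detected genes or in plates without passing cells, 5 detected 10 or more members. They were 2 cells of LOS with 10 and 15 members, 2 of UOS with 10 and 11 and 1 of OSapop with 20. They detected 588 to 1598 genes, and the UOS cell with 11 members held 758 gene counts. The 1 cell whose labels name different stages was put in no group, and it detected 3 members among 2674 genes and 52544 counts.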

How the results depend on the processing

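No paired analysis was possible because the groups hold cells of pooled mice with no shared number and the results come from no test. Alternatives on cells over 12000 genes, cells with inner root sheath genes and plate 6 were added after seeing the data.

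Of the alternative values for the share of cells with 10 or more members 72 stayed within the counting interval and 36 moved. Counting detection from 5 counts gave 23.1% in LOS, 5.26% in MOS and 0 on plates 1 and 2. With 5 or more members the shares were 71.8% (LOS), 47.4% (MOS), 56.2% (UOS), 42.1% (plate 1), 47.2% (OSalive) and 42.4% (OSapop). With 4 or more S phase members alone they were 44.7% (MOS), 57.1% (UOS), 42.1% (plate 1), 45.6% (OSalive) and 39.1% (OSapop), and with 7 or more mitosis members alone 5.60% (OSalive) and 0 (plates 1 and 2). At 15 or more members plates 1 and 2 were at 0. Thinning to 50000 counts gave 10.8% (UOS), 4.84% (OSalive) and 0 (plates 1 and 2), to 20000 counts 8.04%, 2.40% and 0, and to 10000 annotated counts 9.82%, 5.65% and 0. Without cells of 3 or more inner root sheath genes the shares were 16.7% (LOS), 8.60% (UOS) and 0 (plates 2 and 6).

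Counts of members past 2-fold moved as follows, and thinning left few members with enough counts. Apart from the setting without inner root sheath cells, the share of all genes called under each setting is not given here. The counts below are thus not set against all genes and describe only how the calls moved. In LOS 36 higher became 7 of 8 thinned and 14 of 16 without inner root sheath cells, and 0 lower became 1 under median-of-ratios, under TMM and without those cells. In MOS 5 higher became 17 as a mean over cells, 12 from 10 counts or with no filter, 0 without the top cell and 1 thinned, and 9 lower became 1, as a mean over cells or thinned, and 2 without inner root sheath cells. In CatVI 0 higher became 1 from 10 counts or with no filter and 2 without inner root sheath cells, and 21 lower became 32, 32, 1 thinned and 4. In OSalive 11 higher became 6 without the top cell, 0 thinned, 17 without cells over 12000 genes and 30 without inner root sheath cells, and 14 lower became 2 thinned and 2 without those cells. In OSapop against OSalive 19 higher became 29 as a mean over cells and 3 thinned, and 2 lower became 0 under both.

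Direction turned for these values, and the cause was not tested. Without inner root sheath cells the medians were 0.094 for mitosis in CatVI and 0.21 for S phase in OSalive, Ect2 was -1.45 in LOS, and in OSalive Mcm3 was 1.98, Mcm5 0.28, Gins2 0.23, Uhrf1 0.26, E2f1 0.21, Cdc20 3.22 and Birc5 4.22. OSalive held no such cell, so its values changed through UOS alone. As a mean over cells Mcm3 was 0.74, Mcm7 0.21, Tyms 0.012, Uhrf1 0.63 and Aurkb 0.26 in MOS, Aurkb 0.14 in CatVI and Melk 0.36 in OSapop. Without the top cell Kif4 was -0.44, Cenpe -0.42 and Ncapg -1.15 in OSalive. Other scalings moved the median of all genes by -0.23 and -0.25 in LOS and by 0.13 and 0.11 in OSalive.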
